A study of Homo sapiens with 26 samples.

Results

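Natural antisense transcripts are RNAs made from the strand opposite a named gene, and the gene symbols of many end in -AS1, -AS2 or -AS3. This set holds the 350 such genes whose mean level over 26 libraries was at least 1 on the log2 FPKM scale (fragments per kilobase of exon and per library size), out of 25745 genes in the deposited matrix. The symbols AS1 to AS3 occurred 1081 times. Of these, 729 fell short of the level limit, and THUMPD3-AS1 and HM13-AS1 were left out by name. Members were chosen by their mean level, so their levels are a description. The limit used labeled and control libraries alike, and labeling differences took no part in it. KIF1C-AS1 (mean 1.00), GPAT4-AS1 (1.00) and SLC1A3-AS1 (1.00) lay just inside the limit, and HSDL2-AS1 (0.998), SRRM2-AS1 (0.995) and ARAP1-AS2 (0.993) just outside it.

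Antisense RNAs are usually spliced, capped RNAs made by RNA polymerase II, they often reach far lower levels than messenger RNAs, and many stay in the nucleus close to where they are made. Some alter their sense gene through transcription across it, through chromatin or by base pairing with its RNA, while for most no role is known. APEX-seq reads out which RNAs lie close to a peroxidase placed at a chosen site of the living cell.

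The libraries came from HEK293T, a human embryonic kidney line carrying the SV40 large T antigen, with stable expression of APEX2, a peroxidase that tags nearby molecules with biotin. In the Lyn11 and Lck fusions, built on sequences of lipid-anchored kinases, the enzyme sat on the inner side of the plasma membrane. In the CD28 and PDGFR fusions, built on surface receptors, it sat on the outer side. Each line gave libraries called labeled (4 for Lyn11, 3 for each other line) and unlabeled controls (4 and 3), and the series calls them biological replicates. All groups share the cell line, the culture medium and a stably expressed APEX2 fusion, and the labels list 30 min of biotin-phenol, 1 min of 1 mM hydrogen peroxide and a streptavidin pulldown for controls too. Which step the controls lacked is not given in the sources used here. Whether each line is a single clone, and whether the libraries kept strand, is not given either, so reads of RNAs that overlap on opposite strands cannot be told apart. A change in the level of an RNA in these bulk libraries does not separate fewer cells carrying it from less of it per cell.

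Recovered depth was 22.39 to 35.57 M (1e6) reads in Lyn11, 19.99 to 22.92 in Lck, 11.6 to 15.45 in CD28 and 11.86 to 16.62 in PDGFR libraries, so side, line and depth cannot be told apart. The spread of a library around its group mean was narrowest in Lck (SD over genes 0.29 to 0.37 on the log2 scale) and widest in PDGFR (0.77 to 1.17). Replicate 2 of labeled CD28, with 3162 genes at 0 reads, and replicate 2 of the PDGFR controls, with 3035, stood apart. Markers fitted the label: vimentin had a median of 5.68 log2 FPKM and SIX2 of 3.58, while EPCAM, CD3E and LUM were below -1 in the median. Of the 16 measured markers of kidney line, blood, fibroblast or carcinoma cells, 10 reached the test on labeling and none passed in the average. The summed log2 FPKM of the blood list ran from 1.77 to 2.64 in labeled and 1.51 to 2.71 in control libraries, of the fibroblast list from 2.42 to 3.50 and 2.49 to 3.42, and of the carcinoma list from -0.46 to 1.18 and -0.97 to 1.34.

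Most members had both a low level and a better expressed sense gene. Their mean levels ran from 1.00 to 4.91 log2 FPKM, with a median of 1.74, and a median library held 11 to 2415 reads of a member. GENCODE 29 classed 292 as antisense, 26 as lincRNA and 20 as processed transcripts. The annotation went against the noncoding label for CCDC28A-AS1, DIP2C-AS1 and KRT10-AS1, which it classed as protein coding, and 5 others were classed as transcribed pseudogenes. The sense gene named in the symbol was in the matrix for 340 members, 182 of which shared exon bases with it. A further 134 overlapped its span without sharing exon bases, and 19 lay head to head with it, starting near its start and running the other way. MYCBP2-AS2, FAM131B-AS2 and TRMT2B-AS1 were annotated on the same strand as the named gene. PRDX6-AS1 lay farther than 5000 bases from it, and DPH1-AS1 met it tail to tail.

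The antisense RNA lay a median of 1.37 log2 units below its sense gene in mean level. In 181 of 340 pairs it was lower in each of the 26 libraries, and in 25 pairs it was higher in each. Across the 26 libraries, which share depth and construct differences, the Pearson correlation within a pair had a median of 0.175 and ran from -0.706 for MIS18A-AS1 to 0.912 for ZNF503-AS2, which shares exon bases with ZNF503. The 10 highest members by mean were ALG13-AS1 (4.91 log2 FPKM), VPS9D1-AS1 (4.16), THAP9-AS1 (4.10), SLC16A4-AS1 (4.01), RBM12B-AS1 (3.96), FGD5-AS1 (3.86), EMC3-AS1 (3.85), TP73-AS1 (3.77), PCGF3-AS1 (3.72) and GAS5-AS1 (3.68). TP73-AS1, THAP9-AS1 and FGD5-AS1 were above their sense genes in all 26 libraries. FGD5 itself averaged -0.91 and was under the filter for testing, and TP73, a relative of the tumor suppressor p53, averaged 1.93. At the other end, GAS5-AS1 was below GAS5, a host of small nucleolar RNAs at 6.13 log2 FPKM, in every library.

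The sequences around the start of 4 members with large labeling differences are given, to show the starts of RNAs that moved in either direction, from 250 bases before to 50 bases after the start in RefSeq (GRCh38.p14). TRPC7-AS1 (chr5:136213798-136214097, plus strand) and ESAM-AS1 (chr11:124758884-124759183, plus strand) were higher in labeled libraries. CREB3L2-AS1 (chr7:137953098-137953397, plus strand) and ZNF436-AS1 (chr1:23368721-23369020, plus strand) were lower. Capitals mark matches, on either strand, to the CCAAT box, to the GC box letters GGGCGG or to the TATA box letters TATAAA. Matches of different motifs could share bases, and each motif was counted on its own.
TRPC7-AS1: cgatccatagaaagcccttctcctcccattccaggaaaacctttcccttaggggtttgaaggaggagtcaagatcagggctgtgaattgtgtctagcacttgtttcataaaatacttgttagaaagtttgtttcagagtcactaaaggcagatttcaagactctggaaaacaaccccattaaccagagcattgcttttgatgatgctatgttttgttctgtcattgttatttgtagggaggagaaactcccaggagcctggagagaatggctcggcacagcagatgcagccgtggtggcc
ESAM-AS1: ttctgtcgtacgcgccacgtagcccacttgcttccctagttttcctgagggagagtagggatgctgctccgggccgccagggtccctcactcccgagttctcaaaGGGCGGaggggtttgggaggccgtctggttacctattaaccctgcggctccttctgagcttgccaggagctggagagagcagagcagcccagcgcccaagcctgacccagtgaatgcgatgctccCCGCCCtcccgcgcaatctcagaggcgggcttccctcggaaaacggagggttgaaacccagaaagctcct
CREB3L2-AS1: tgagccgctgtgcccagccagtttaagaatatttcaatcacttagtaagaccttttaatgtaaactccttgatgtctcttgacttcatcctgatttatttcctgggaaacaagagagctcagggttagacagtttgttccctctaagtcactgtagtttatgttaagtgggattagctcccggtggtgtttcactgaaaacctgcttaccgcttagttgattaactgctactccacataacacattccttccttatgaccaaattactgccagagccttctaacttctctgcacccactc
ZNF436-AS1: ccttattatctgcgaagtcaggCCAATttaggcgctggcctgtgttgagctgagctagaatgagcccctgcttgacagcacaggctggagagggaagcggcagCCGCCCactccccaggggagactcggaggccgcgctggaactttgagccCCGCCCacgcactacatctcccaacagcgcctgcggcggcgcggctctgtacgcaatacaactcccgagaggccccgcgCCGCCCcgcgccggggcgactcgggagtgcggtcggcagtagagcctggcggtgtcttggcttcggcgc

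ZNF436-AS1 held 1 CCAAT and 3 GGGCGG matches and 29 CG dinucleotides, and ESAM-AS1 2 GGGCGG matches and 18 CG dinucleotides. TRPC7-AS1 and CREB3L2-AS1 held none of the motifs and 3 CG dinucleotides each. A RefSeq start was matched for 250 of the 350 members. GGGCGG occurred in 44.4% of these and in 44.6% of all 27305 starts in the table, CCAAT in 32.4% and 35.7%, and TATAAA in 9.60% and 12.0%. Among the 28 matched members that fell with labeling, GGGCGG occurred in 50.0% and CCAAT in 32.1%. Of the 5 matched members that rose, 4 held GGGCGG and none the other motifs. No test of these shares was made.

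Labeling differences were asked of each member as labeled minus control, in each line and as the average of the 4 lines. In the average, 45 of 350 members fell and 10 rose at an adjusted p under 0.05 (limma over 22284 genes), which is 12.9% and 2.86% of them. Over all genes tested 3.08% fell and 4.29% rose, 7.37% in either direction. Among the members that passed, the 5 lowest average differences belonged to EPC1-AS1 (-1.39 ± 0.30 log2 units, SE of the fit), TRIM7-AS2 (-1.22 ± 0.31), OGFR-AS1 (-1.08 ± 0.24), ATXN1-AS1 (-0.99 ± 0.14) and ZNF775-AS1 (-0.98 ± 0.26). Reads were few for EPC1-AS1 (0 to 28 a library) and OGFR-AS1 (3 to 99). The 0 was in replicate 2 of labeled CD28, which stood apart. USP12-AS1 (-1.12 ± 0.36) and MAPK8IP3-AS1 (-1.06 ± 0.47) were among the 5 lowest of all members and did not pass. EPC1 is a subunit of a histone acetyltransferase complex, and TRIM7 is a ubiquitin ligase. The largest rise was that of TRPC7-AS1, by 1.80 ± 0.37, followed among members that passed by UST-AS1 (0.92 ± 0.26), ESAM-AS1 (0.86 ± 0.19) and GAS5-AS1 (0.75 ± 0.12). Without the 2 libraries that stood apart, 43 members fell and 14 rose.

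**Figure D1:**
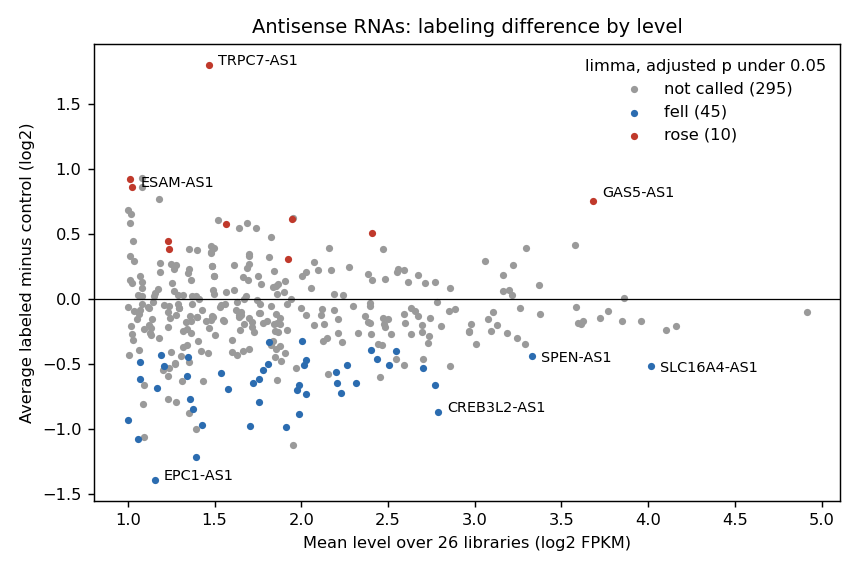
Average labeled minus control difference (log2) of each of the 350 antisense RNAs against its mean level over 26 libraries (log2 FPKM), 1 point per RNA. Blue points (45) fell and red points (10) rose at an adjusted p under 0.05 in limma; the fallen members lie at levels from 1.00 to 4.01 and below the line at 0.

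The whole set also sat lower. The median average difference was -0.14 in the members and -0.01 over all genes tested, and 67.1% of members against 51.1% of all genes were below 0. In 105 members (30.0%) the labeled mean was lower in all 4 lines, against 13.5% of all genes, and in 29 (8.29%) it was higher in all 4, against 12.4%. Other noncoding classes were counted the same way. Of 99 divergent transcripts (symbols ending in -DT, which start near a gene's start and run away from it) 22 fell and 1 rose, with a median of -0.22. Of 98 LINC genes 8 fell and 7 rose, with a median of -0.11. Of the 516 antisense genes under the level limit that were tested, 24 fell and 16 rose, with a median of -0.15. The low median was thus present in each of these classes, and no test of a difference between them was made.

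**Figure D2:**
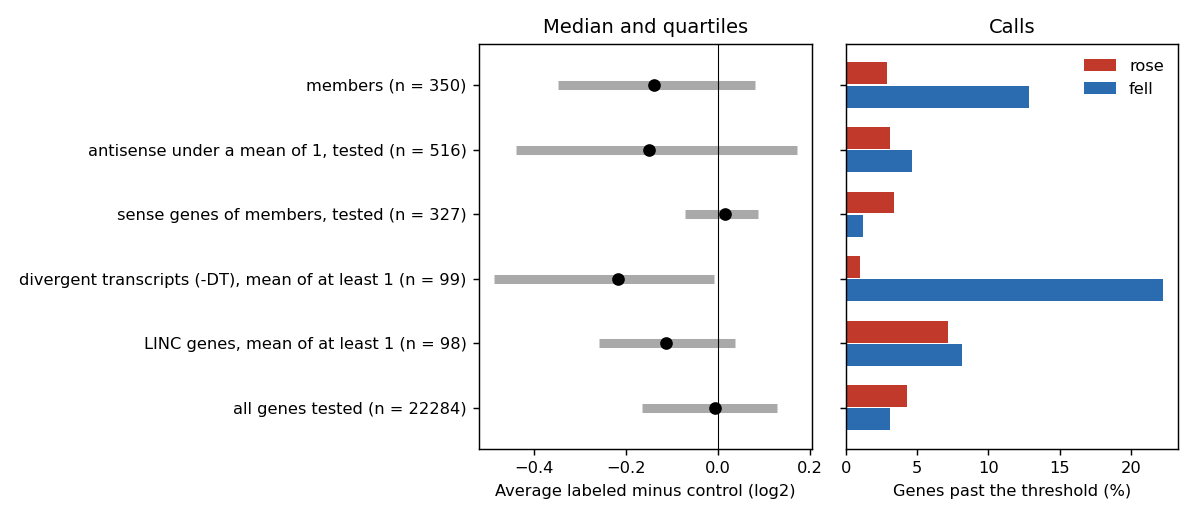
Left, median (point) and quartiles (bar) of the average labeled minus control difference (log2) in the antisense RNAs and 5 comparison lists. Right, percent of each list that rose or fell; the antisense RNAs fell in 12.9% and rose in 2.86%, against 3.08% and 4.29% of all genes tested.

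The sense genes did not sit lower. Their median average difference was 0.02 over the 327 distinct genes tested, of which 4 fell and 11 rose. Of the 41 fallen members with a tested sense gene, 1 had a sense gene that fell (C10orf95) and none had one that rose, and the median sense difference was -0.00. Of the 10 risen members, 2 had a sense gene that rose, TRPC7 and ESAM. The other sense genes that fell were ALOX12, GAS8 and MNX1, named after their values were seen, whose antisense RNAs were not called. The sense genes that rose with the largest differences beside an uncalled antisense RNA were KCNK15 (1.37) and MRAP (0.92), also picked after their values were seen. KCNK15, a potassium channel of the plasma membrane, had a mean level of -0.27 log2 FPKM, and KCNK15-AS1 differed by -0.23 ± 0.62.

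**Figure D3:**
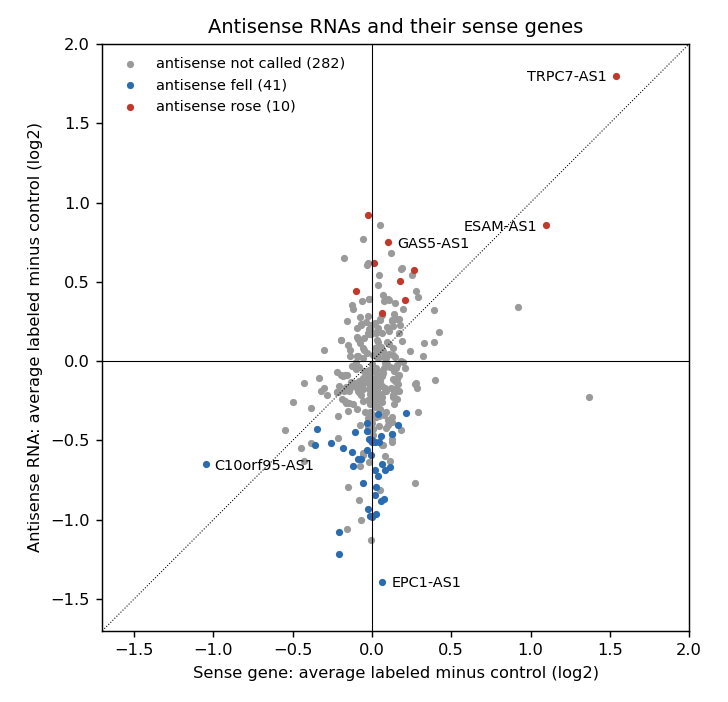
Average labeled minus control difference (log2) of the antisense RNA (vertical) against that of its sense gene (horizontal) for 333 pairs, with a dotted line where both are equal. Blue points (41, antisense fell) lie below 0 while their sense genes spread about 0, and TRPC7-AS1, ESAM-AS1 and C10orf95-AS1 lie nearest the dotted line among those marked.

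The antisense minus sense log ratio was tested in its own fit over 9911 pairs, namely 815 pairs named by symbol and 9096 pairs of opposite-strand neighbors. For 39 of the 333 member pairs the average labeled minus control difference of the log ratio passed the test (limma, adjusted p under 0.05), 35 lower and 4 higher. Over all pairs 9.04% passed in either direction. Taken in either direction, the share of member pairs was only somewhat above that. Shares of all pairs by direction were not counted. Neighbor pairs were taken as the gene with the lower mean minus the other. The median difference of the log ratio was -0.12 in member pairs against -0.04 over all pairs. By line it was -0.06 against 0.03 in Lyn11, -0.07 against 0.04 in Lck, -0.37 against -0.22 in CD28 and -0.06 against -0.01 in PDGFR. The pair passed for 29 of the 41 fallen members and 2 of the 10 risen ones, GAS5-AS1 and UST-AS1. The ratio contains the antisense difference by which these members were called, so these passes are not separate evidence. In 8 further pairs the ratio passed while the antisense RNA alone did not. Lower ratios were found for ARRDC1-AS1 (-0.30), FOXP4-AS1 (-0.51), JARID2-AS1 (-0.64), NHSL1-AS1 (-0.59), PANK2-AS1 (-0.68) and ZNF503-AS2 (-0.33), and higher ratios for OTUD6B-AS1 (0.41) and YEATS2-AS1 (0.45). By position, 22 of 182 members with shared exon bases fell (12.1%), as did 17 of 134 with span overlap alone (12.7%) and 3 of 19 head to head (15.8%). The share that fell was thus similar with and without exon bases in common, and that similarity was not tested.

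**Figure D4:**
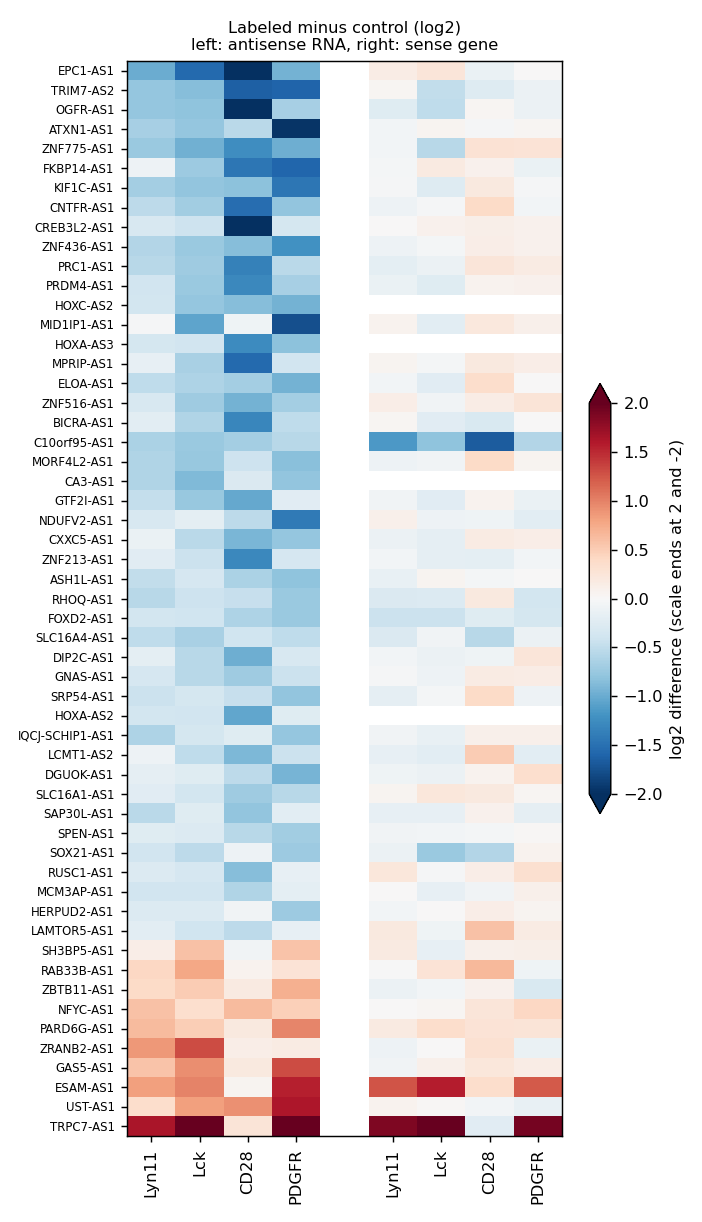
Labeled minus control difference (log2, color scale ending at 2 and -2) of the 45 fallen and 10 risen antisense RNAs in each line (left columns) and of their sense genes (right columns; white where the sense gene is not measured or not tested). The fallen members are blue in all 4 lines, while among sense genes C10orf95 is blue and TRPC7 and ESAM are red.

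The fallen members are given here with what their sense genes do. That order was made after the values were seen and no share was counted over all members. Among the sense genes are some of transcription and chromatin. Beside EPC1-AS1, the members opposite such genes were BICRA-AS1 (average difference -0.66; BICRA is part of a SWI/SNF remodeling complex), ASH1L-AS1 (-0.56; a histone methyltransferase), SAP30L-AS1 (-0.44; a subunit of a histone deacetylase complex), MORF4L2-AS1 (-0.65), ELOA-AS1 (-0.69; elongin A), GTF2I-AS1 (-0.62), SPEN-AS1 (-0.44; a transcriptional repressor), PRDM4-AS1 (-0.77), CXXC5-AS1 (-0.59), FOXD2-AS1 (-0.53), SOX21-AS1 (-0.43) and CREB3L2-AS1 (-0.87; a transcription factor held in the endoplasmic reticulum membrane). Of the 16 members opposite ZNF, ZSCAN, ZBTB or ZFP genes, 4 fell (ZNF436-AS1, ZNF775-AS1, ZNF516-AS1 at -0.67 and ZNF213-AS1 at -0.57) and 1 rose (ZBTB11-AS1). That grouping was made after the values were seen.

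The other fallen members lie opposite genes of varied roles. These were CNTFR-AS1 (-0.88; a subunit of the ciliary neurotrophic factor receptor), GNAS-AS1 (-0.51; the stimulatory G protein alpha subunit, an imprinted locus), RHOQ-AS1 (-0.55), SLC16A1-AS1 (-0.46) and SLC16A4-AS1 (-0.52; monocarboxylate transporter genes), SRP54-AS1 (-0.51; the signal recognition particle), LAMTOR5-AS1 (-0.33; the lysosomal Ragulator complex), MPRIP-AS1 (-0.69), KIF1C-AS1 (-0.93; a kinesin), PRC1-AS1 (-0.79; a microtubule bundler of cytokinesis) and MID1IP1-AS1 (-0.73). Further ones were FKBP14-AS1 (-0.97), NDUFV2-AS1 (-0.61; a complex I subunit), DGUOK-AS1 (-0.47; a mitochondrial nucleoside kinase), LCMT1-AS2 (-0.49), MCM3AP-AS1 (-0.39), DIP2C-AS1 (-0.51), IQCJ-SCHIP1-AS1 (-0.50), RUSC1-AS1 (-0.40), HERPUD2-AS1 (-0.33), C10orf95-AS1, CA3-AS1 and 3 RNAs of the HOX clusters. In all 45 the labeled mean was lower in each of the 4 lines. They were called on the average of those lines, so that agreement is not separate evidence. A call was kept in all 34 alternatives for 30 of them. The fewest were kept by SOX21-AS1 (9), SAP30L-AS1 (10), CXXC5-AS1 (14), NDUFV2-AS1 (14) and DIP2C-AS1 (25).

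C10orf95-AS1 and ZNF436-AS1 were the only members whose labeled libraries all lay below the controls in each of the 4 lines. Separation in all 4 lines was not counted over all genes tested. Whether it was more frequent among members than among all genes therefore cannot be told. C10orf95-AS1 stood at 2.18, 2.09, 1.96 and 2.22 log2 FPKM in labeled Lyn11 libraries and 2.98, 2.73, 2.76 and 2.49 in controls, and at 1.73, 1.98 and 1.65 against 2.49, 2.53 and 2.58 in Lck. It stood at 1.91, 2.19 and 2.25 against 2.93, 2.54 and 2.89 in CD28, and at 2.08, 1.69 and 1.95 against 2.98, 2.10 and 2.29 in PDGFR. The gap was narrowest in PDGFR, where the highest labeled and lowest control libraries were nearly level. The average difference was -0.65 ± 0.09 (limma adjusted p = 8.64e-05). C10orf95, an uncharacterized gene at 0.03 log2 FPKM, fell by 1.05 ± 0.26 (limma adjusted p = 0.0156), with labeled and control libraries overlapping in 3 of the 4 lines. The genes share 970 exon bases, 17.1% of the antisense exons, so part of each value may come from reads of the other, and the log ratio of the pair did not pass (0.40 ± 0.28, limma adjusted p = 0.431).

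ZNF436-AS1 read 1.39, 0.97, 1.24 and 1.19 log2 FPKM in labeled and 1.61, 2.02, 1.84 and 1.66 in control Lyn11 libraries, and 1.10, 0.82 and 0.64 against 1.37, 2.02 and 1.40 in Lck. It read 0.90, 0.47 and 0.96 against 1.96, 1.36 and 1.56 in CD28, and 1.64, 0.38 and 0.80 against 2.04, 2.20 and 2.23 in PDGFR. Every control library lay above every labeled library of its line. The average difference was -0.85 ± 0.13 (limma adjusted p = 0.000198). ZNF436, a zinc finger gene at 1.94 log2 FPKM, differed by 0.02 ± 0.10, and the log ratio passed (-0.87 ± 0.18, limma adjusted p = 0.00403).

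The HOX clusters, which encode transcription factors of body patterning, gave 7 members, of which HOXA-AS2, HOXA-AS3 and HOXC-AS2 fell and none rose (median -0.47; the group was formed after the values were seen). HOXB-AS2 (-0.07 ± 0.10), HOXB-AS3 (-0.35 ± 0.14), HOXC-AS1 (-0.47 ± 0.22) and HOXD-AS2 (-0.25 ± 0.16) did not pass. Their symbols name a cluster, so no sense gene was assigned, and exon bases were shared most with HOXA3, HOXA7 and HOXC9. HOXA-AS2 and HOXA-AS3 lie on the same strand of chromosome 7 with overlapping spans (27107777 to 27134302 and 27129977 to 27155928), so they are not independent. In CD28, HOXA-AS2 stood at 1.99, 1.86 and 2.26 log2 FPKM when labeled against 3.03, 3.03 and 3.15 in controls, and HOXA-AS3 at 1.29, 1.34 and 1.82 against 2.97, 2.80 and 2.48. Both were clearly apart there. In Lck, HOXA-AS2 stood at 2.24, 2.16 and 2.13 against 2.48, 2.65 and 2.54, again without overlap. In PDGFR it stood at 2.45, 2.67 and 2.72 against 2.73, 2.97 and 2.86, where the highest labeled and lowest control libraries were nearly level. In Lyn11 the labeled libraries stood at 2.11, 2.25 and 2.52, with replicate 3 below them at 521 reads, against 2.84, 2.60, 2.40 and 2.51, and the highest labeled library passed 2 of the controls. HOXC-AS2 had its largest difference in PDGFR, at 1.92, 1.53 and 2.17 against 2.90, 2.54 and 3.02. The average differences were -0.51 ± 0.07, -0.70 ± 0.11 and -0.73 ± 0.12 (limma adjusted p = 6.92e-05, 0.000256 and 0.000295).

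SLC16A1-AS1 lies opposite SLC16A1, which encodes the lactate transporter MCT1 of the plasma membrane, and shares 175 exon bases with it. Its levels were 2.01, 2.34, 2.04 and 2.20 log2 FPKM in labeled and 2.40, 2.33, 2.35 and 2.43 in control Lyn11 libraries, and 2.18, 2.40 and 2.26 against 2.57, 2.60 and 2.76 in Lck. They were 2.05, 1.91 and 2.33 against 2.77, 2.83 and 2.80 in CD28, and 2.55, 2.32 and 2.22 against 2.76, 3.11 and 2.86 in PDGFR. Labeled and control libraries overlapped in Lyn11 alone. The antisense RNA fell by 0.46 ± 0.06 (limma adjusted p = 8.5e-05), while SLC16A1, at 6.32 log2 FPKM, differed by 0.13 ± 0.08 in the other direction and did not pass (limma adjusted p = 0.436). The log ratio passed (-0.59 ± 0.11, limma adjusted p = 0.0023).

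CREB3L2-AS1 had its largest difference in CD28, and ATXN1-AS1 in PDGFR. CREB3L2-AS1 stood at 1.57, -0.27 and 2.47 log2 FPKM in labeled CD28 libraries, 24, 6 and 46 reads, against 3.59, 3.80 and 3.53 in controls. The lowest value was that of the replicate 2 library that stood apart, but the other labeled libraries were also below every control. Over the other lines together it ranged from 2.31 to 3.13 when labeled and from 2.53 to 3.46 in controls. Line by line, labeled and control libraries overlapped in Lyn11 and PDGFR. In Lck every labeled library lay below every control. CREB3L2 stood at 5.17, 5.07 and 5.07 against 4.93, 5.00 and 5.01 in the same CD28 libraries. The CD28 difference was -2.38 ± 0.40 for the antisense RNA (limma adjusted p = 0.00741), and the average difference was -0.87 ± 0.19 (limma adjusted p = 0.00606). The fit shares its estimate of spread over all lines, and with CD28 fitted alone no member passed.

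ATXN1-AS1 stood at 0.87, 0.53 and 0.75 log2 FPKM in labeled PDGFR libraries against 2.54, 2.69 and 2.80 in controls, 14 to 18 reads against 61 to 71. ATXN1, whose protein is altered in a spinocerebellar ataxia, stood at 1.76, 1.98 and 2.27 against 1.97, 2.01 and 1.92. The antisense libraries were far apart and the sense libraries overlapped. The PDGFR difference was -1.96 ± 0.28 (limma adjusted p = 0.000581), against -0.67 ± 0.24 in Lyn11, -0.78 ± 0.28 in Lck and -0.53 ± 0.28 in CD28. These SEs also share the spread of all lines, and with PDGFR fitted alone no member passed. ATXN1 differed by 0.00 ± 0.06 in the average. The 2 genes share no exon bases.

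CA3-AS1, opposite a carbonic anhydrase gene of muscle, was the member called in Lck. It stood at 1.35, 1.13 and 1.07 log2 FPKM when labeled and 1.95, 2.34 and 1.92 in controls of that line. In Lyn11 it stood at 1.61, 1.59, 1.71 and 2.04 against 2.45, 2.36, 2.40 and 2.13, and in PDGFR at 2.28, 2.57 and 2.21 against 3.28, 2.61 and 3.53. Groups did not overlap in these 3 lines, and did in CD28 (2.33, 2.10 and 2.54 against 2.69, 2.72 and 2.46). The average difference was -0.64 ± 0.10 (limma adjusted p = 0.000201). CA3 itself averaged -1.45 log2 FPKM and was not tested.

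**Figure D5:**
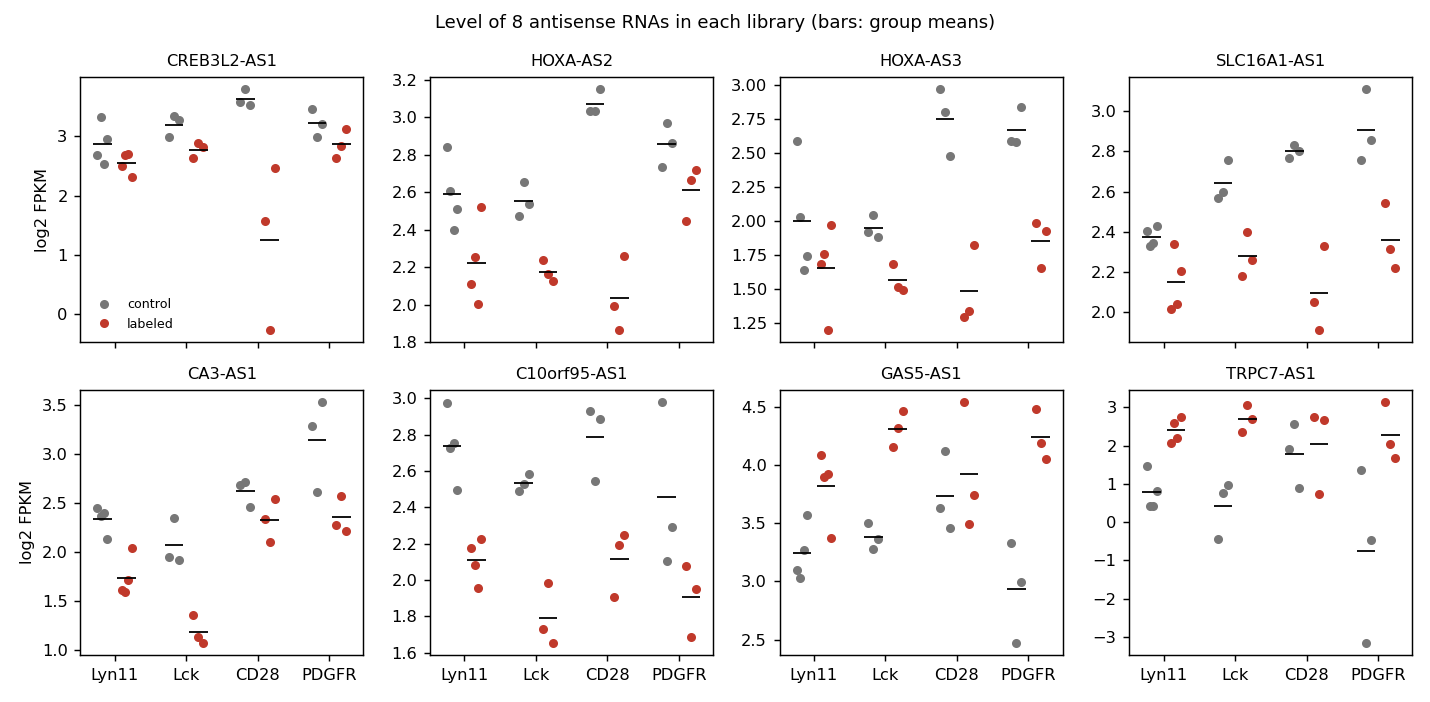
Level (log2 FPKM) of 8 antisense RNAs in every library, by line, with gray points for controls, red for labeled libraries and bars for group means; each panel has its own axis. C10orf95-AS1 is lower in every labeled library of each line, CREB3L2-AS1 is lowest in labeled CD28, and GAS5-AS1 and TRPC7-AS1 are higher in labeled Lck and PDGFR libraries.

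The members that rose were fewer, and 2 of the 10 rose together with their sense gene. TRPC7 is a cation channel of the plasma membrane. TRPC7-AS1 stood at 2.08, 2.59, 2.20 and 2.74 log2 FPKM in labeled and 1.46, 0.41, 0.42 and 0.82 in control Lyn11 libraries, and at 2.36, 3.06 and 2.69 against -0.44, 0.77 and 0.96 in Lck. It stood at 3.14, 2.04 and 1.66 against 1.36, -3.15 and -0.48 in PDGFR, and at 2.75, 0.73 and 2.67 against 1.90, 2.56 and 0.90 in CD28. Labeled libraries were above the controls in Lyn11, Lck and PDGFR and overlapped them in CD28. The value of -3.15 came from 0 reads in the PDGFR control that stood apart, so the PDGFR fold depends on the prior count. The reads behind the other values were few, 4 to 90 a library. TRPC7 stood at -0.21, 0.66, -0.06 and 0.71 against -0.46, -2.11, -2.04 and -1.76 in Lyn11 and at 0.59, 0.51 and 0.62 against -2.72, -1.95 and -1.43 in Lck. In Lyn11 and Lck TRPC7 thus showed the same order of groups as its antisense RNA. The average differences were 1.80 ± 0.37 for TRPC7-AS1 and 1.54 ± 0.25 for TRPC7 (limma adjusted p = 0.00338 and 0.000411). They share no exon bases, only span.

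ESAM encodes an adhesion molecule of endothelial tight junctions. ESAM-AS1 stood at 1.18, 1.33, 1.34 and 1.58 log2 FPKM against 0.97, 0.63, 0.11 and 0.44 in Lyn11, and at 1.57, 1.61 and 1.34 against 0.28, 1.06 and 0.18 in Lck. It stood at 1.51, 1.96 and 1.71 against 0.59, -1.27 and 1.20 in PDGFR, and at 1.19, 1.14 and 1.36 against 1.28, 1.05 and 1.20 in CD28. As for TRPC7-AS1, CD28 was the line where the groups overlapped. The average differences were 0.86 ± 0.19 for ESAM-AS1 and 1.10 ± 0.25 for ESAM (limma adjusted p = 0.00746 and 0.00666). The pair's log ratio did not pass.

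GAS5-AS1 rose without its sense RNA. It stood at 4.09, 3.90, 3.92 and 3.37 log2 FPKM in labeled and 3.10, 3.03, 3.27 and 3.57 in control Lyn11 libraries, and at 4.15, 4.31 and 4.46 against 3.50, 3.28 and 3.36 in Lck. It stood at 4.48, 4.19 and 4.05 against 3.33, 2.47 and 3.00 in PDGFR, and at 4.54, 3.49 and 3.74 against 3.63, 4.12 and 3.46 in CD28. Lck and PDGFR libraries were apart, and those of Lyn11 and CD28 overlapped. GAS5 stood at 6.35, 6.31 and 6.42 against 6.30, 6.35 and 6.10 in Lck and at 6.08, 6.11 and 6.18 against 5.92, 6.09 and 5.90 in PDGFR. The average differences were 0.75 ± 0.12 for GAS5-AS1 (limma adjusted p = 0.00037) and 0.10 ± 0.08 for GAS5 (limma adjusted p = 0.539), and the log ratio passed (0.65 ± 0.13, limma adjusted p = 0.00332).

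The other risen members also had sense genes that did not pass. ZRANB2-AS1 (0.62 ± 0.17) lies opposite a splicing factor gene, PARD6G-AS1 (0.57 ± 0.12) opposite a cell polarity gene, NFYC-AS1 (0.51 ± 0.12) opposite a subunit of the CCAAT-binding factor NF-Y, ZBTB11-AS1 (0.44 ± 0.11) opposite a zinc finger gene, RAB33B-AS1 (0.38 ± 0.11) opposite a Golgi GTPase, SH3BP5-AS1 (0.31 ± 0.09) and UST-AS1 (0.92 ± 0.26) opposite a sulfotransferase gene. In 9 of the 10 risen members the labeled mean was higher in all 4 lines. The exception was SH3BP5-AS1, at -0.07 in CD28. These members too were called on the average of the lines, so that agreement is not separate evidence. A call was kept in all 34 alternatives for 6 of the 10. It was kept in 32 for ZRANB2-AS1, 28 for UST-AS1, 26 for RAB33B-AS1 and 17 for SH3BP5-AS1.

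Among the 10 members with the largest average differences were also TGFB2-AS1 (0.93 ± 0.29), MTOR-AS1 (0.86), BACH1-AS1 (0.77), GPAT4-AS1 (0.68), PDC-AS1 (0.65) and UST-AS2 (0.62), none of which passed. Of the members just inside the limit, KIF1C-AS1 fell and GPAT4-AS1 and SLC1A3-AS1 (-0.06) did not pass. Just outside it, HSDL2-AS1 differed by 0.28 ± 0.14, SRRM2-AS1 by -0.16 ± 0.15 and ARAP1-AS2 by -0.28 ± 0.19. Of the 10 highest members only SLC16A4-AS1 (-0.52 ± 0.13) and GAS5-AS1 passed. The other 8 lay between -0.24 for THAP9-AS1 and 0.01 for FGD5-AS1.

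Line by line, calls were few. In Lyn11 no member passed in limma, with 31 of 350 at an unadjusted p under 0.05, while 0.579% of all genes passed (0.530% higher and 0.0494% lower). With the Lyn11 libraries fitted alone, and by limma voom on the recovered reads, 1 member passed. In Lck only CA3-AS1 passed (-0.89 ± 0.20, limma adjusted p = 0.0379), against 0.794% of all genes (0.758% higher and 0.0359% lower). The Lck libraries had the narrowest spread, and with Lck fitted alone 12 members fell and 9 rose. With libraries weighted by construct, a setting chosen after the data were seen, 29 fell and 13 rose.

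In CD28, 8 members fell and none rose, against 0.476% of all genes in either direction and 0.301% that fell. Beside CREB3L2-AS1, HOXA-AS2 and HOXA-AS3 (-1.27 ± 0.23) these were CNTFR-AS1 (-1.52 ± 0.33), PRDM4-AS1 (-1.29 ± 0.27), GTF2I-AS1 (-1.02 ± 0.21), RUSC1-AS1 (-0.85 ± 0.18) and SLC16A1-AS1 (-0.70 ± 0.13). The median CD28 difference was -0.31 in members against 0.03 in all genes, and 76.0% of members were below 0. Centring on the median gene moved the median of all genes to 0.15, and limma voom moved it to -0.14. The count was 0 with CD28 fitted alone, 2 without labeled replicate 2, 18 without labeled replicate 1 and 14 without labeled replicate 3.

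In PDGFR, 10 members fell and 6 rose, 2.86% and 1.71% against 0.758% and 1.37% of all genes (2.13% in either direction). ITGB5-AS1 (-2.05 ± 0.45), MID1IP1-AS1 (-1.75 ± 0.40), NDUFV2-AS1 (-1.41 ± 0.37), ZNF436-AS1 (-1.22 ± 0.27), ZNF674-AS1 (-0.74 ± 0.18) and HERPUD2-AS1 (-0.73 ± 0.15) fell beside ATXN1-AS1, HOXC-AS2, CA3-AS1 and SLC16A1-AS1. PIK3CD-AS2 (1.19 ± 0.26), PNISR-AS1 (0.84 ± 0.19) and GNG12-AS1 (0.65 ± 0.16) rose beside TRPC7-AS1, ESAM-AS1 and GAS5-AS1. ITGB5-AS1, ZNF674-AS1, PIK3CD-AS2, PNISR-AS1 and GNG12-AS1 were not called in the average. With PDGFR fitted alone, and by limma voom on the recovered reads, no member passed. Without labeled replicate 2 the count was 9 and without labeled replicate 3 it was 4.

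Labeled and control libraries lay fully apart with the labeled ones lower for 83 members in Lck (23.7%, against 13.2% of all genes), 60 in CD28 (17.1%, against 6.59%), 51 in PDGFR (14.6%, against 6.39%) and 12 in Lyn11 (3.43%, against 1.91%). They lay apart with the labeled ones higher for 40 in Lck (11.4%, against 12.9%), 5 in CD28 (1.43%, against 7.44%), 30 in PDGFR (8.57%, against 7.53%) and 10 in Lyn11 (2.86%, against 3.40%). Complete separation downward was thus more frequent among members than among all genes in each line. The pair ratios gave no call in Lyn11 or Lck (0.444% and 0.605% of all pairs), 9 lower in CD28 (1.04%), and 7 lower and 3 higher in PDGFR (3.14%). Among the 333 member pairs the PDGFR share was close to that of all pairs. With weights by construct, Lck gave 19 lower and 11 higher, CD28 gave 1 lower and PDGFR gave none. The CD28 pairs were 24 lower and 1 higher without labeled replicate 1, 18 lower without labeled replicate 3 and 1 lower without labeled replicate 2. They were 5, 2 and 2 lower without control replicates 1, 2 and 3. The PDGFR pairs were 12 lower and 5 higher without control replicate 3, and 11 lower and none higher without labeled replicate 1.

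The difference between sides was asked as the inside minus the outside labeling difference. No member passed in limma (0.00449% of all genes did), and 24 had an unadjusted p under 0.05. By limma voom no member passed either. The median was 0.13 in members and -0.04 in all genes. Line by line the median of the members was -0.09 in Lyn11, -0.10 in Lck, -0.31 in CD28 and -0.05 in PDGFR. The pair ratios gave no call (0.0101% of all pairs).

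Control libraries of the outside and inside lines differed in 42 members, 34 higher and 8 lower in the outside controls, against 11.2% of all genes (3.84% higher and 7.34% lower). Side, line and depth cannot be told apart here. The split was 28 and 18 after centring on the median gene, 35 and 19 after quantile normalization and 50 and 4 by limma voom on the recovered reads, and the total was 27 without replicate 2 of the CD28 controls or replicate 1 of the Lck controls. The highest were TBC1D22A-AS1 (1.72 ± 0.30), DIP2C-AS1 (1.72 ± 0.20), PDLIM7-AS1 (1.48 ± 0.38), CSNK1G2-AS1 (1.47 ± 0.31), KIAA1671-AS1 (1.43 ± 0.32) and JARID2-AS1 (1.21 ± 0.28). They were followed by MRAP-AS1 (1.18), COL18A1-AS2 (1.16), ZNF503-AS2 (1.10), NLGN1-AS1 (1.04), RUVBL1-AS1 (1.03), ITGB5-AS1 (1.00), MAGI1-AS1 (0.95), SRGAP3-AS3 (0.95), SMYD3-AS1 (0.84) and SPEN-AS1 (0.82). Between 0.82 and 0.64 lay LARGE-AS1, HOXD-AS2, PRKCE-AS1, ECI1-AS1, CNPY2-AS1, BICRA-AS1, ATP1B3-AS1, HOXA-AS3, PABPC4-AS1, PLS3-AS1, CA3-AS1, HOXB-AS3 and CRADD-AS1. The smallest were DGUOK-AS1 (0.59), ADGRL1-AS1 (0.56), ZSCAN16-AS1 (0.43), HOXA-AS2 (0.39) and SLC16A1-AS1 (0.34). The lower ones were ZNF710-AS1 (-1.01), RAET1E-AS1 (-0.98), PNISR-AS1 (-0.87), PIK3CD-AS2 (-0.84), DHRS4-AS1 (-0.64), RHOQ-AS1 (-0.62), STARD7-AS1 (-0.50) and FGD5-AS1 (-0.29). PNISR-AS1 and PIK3CD-AS2, lower in the outside controls, were the same RNAs that rose with labeling in PDGFR, a comparison that shares those controls. In 25 of the 333 member pairs the antisense to sense ratio was higher in the outside controls and in 7 lower, against 9.25% of all pairs. Taken in either direction, the share of member pairs was close to that of all pairs. The split was 12 and 4 without replicate 2 of the CD28 controls, 16 and 2 without replicate 1 of the Lck controls, 16 and 3 with weights by construct and 24 and 13 after quantile normalization.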

How the data were processed

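The deposited values are log2 FPKM of 25745 Ensembl genes in 26 libraries. Per the submitters' processing notes the authors aligned reads to hg38 with HISAT2 2.1.0 and named edgeR without a version. The values carry a prior count of about 1.00 read scaled to library size, which shrinks the differences of genes with few reads. Reads were recovered from the values and lay within 0.05 of a whole number in 97.5% or more of the values checked. Intervals from read numbers would cover counting error only.

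Symbols came from a table of Ensembl names (25492 identifiers matched) and positions from GENCODE 29. The 22284 genes above 0 on the log2 scale in 3 or more libraries went into a limma fit (limma 3.58.1, R 4.3.3). It had 8 group means, an intensity trend, 18 residual degrees of freedom and two-sided p-values with Benjamini-Hochberg adjustment in each of 7 comparisons. Pairs of genes on opposite strands that overlap or lie within 5000 bases, and pairs named by symbol, were fitted likewise on their log ratio. Both fits were tested on simulated data that gave each gene the same spread in every library. That test does not cover the unequal spread of the lines. Members and lists were chosen with earlier results of these data known. Named were all members that passed any test, the 10 highest, the 10 largest and 5 smallest average differences, and those at the limit. Part of the control differences were given as a range, and values of sense genes only for some.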

Additional observations from a re-analysis of the deposited data

Results flagged for a closer look

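BICRA-AS1 stood at 3.33 log2 FPKM in replicate 1 of the Lyn11 controls, while the other 3 controls of that line stood at 2.15 to 2.22. The gap to the nearest library was larger than Dixon's critical value of 0.829 for 4 samples, as a share of the whole range. It was the 1 such case among 110 groups of 4 libraries checked. Chance gives about 1 in 20, so flags were fewer than chance alone would give. Without that library the average difference of BICRA-AS1 was -0.59, against -0.66 with it, and it still passed (limma adjusted p = 0.0104).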

How the results depend on the processing

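The 45 fallen and 10 risen members of the average stayed within 1.5 times of their total of 55 in every alternative run, with 46 to 60 when 1 library was left out. No single gene reversed among 4414 checks, 3741 of which kept their side of the threshold and 673 of which lost it. Replicate numbers did not pair the libraries (correlations of same-numbered deviations -0.29 to 0.17). With the replicate block the average gave 45 members (8 rose, 37 fell), CD28 3, Lck 0 and PDGFR 5.

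Counts for single lines depended on the fit. CD28 gave 8 members, but 0 with its libraries alone, 4 by limma voom or quantile normalization, 2 with weights by construct, 3 without the 2 libraries that stood apart and 2 to 18 with 1 library left out. Lck gave 1, but 21 alone, 5 by voom, 8 by quantile normalization, 42 with weights, 6 without those 2 libraries and 0 without any 1 of its own. Lyn11 gave 0, but 1 alone, by voom or without those 2 libraries, and 0 with 1 library left out. PDGFR gave 16, but 0 alone or by voom, 2 with weights, 10 with a stricter filter and 4 to 17 with 1 library left out. Control differences gave 42, and 27 to 50 with 1 left out. Pairs gave 39 in the average, and 29 to 42; pair counts of single lines and of controls moved more, as given beside them. Taking as partner the gene with most shared exon bases, 203 pairs gave 3 higher and 25 lower. Weights and the 2 libraries were chosen after seeing the data. The causes were not tested. Depth limits members near 11 reads a library.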
